A study of Mus musculus with 6 samples.

Results

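The 40 genes described here encode ribosome biogenesis and nucleolar proteins, and their FPKM (fragments per gene, divided by the length of the gene and the size of the library) were followed in the stomach corpus of 6 mice. They were taken by symbol from a list of 40, and all 40 were found once each among the 18988 rows of the deposited expression table. The corpus is the main body of the stomach, with acid-secreting parietal cells and enzyme-secreting chief cells. Per the labels, 3 C57BL/6 mice of genotype Ras;APC FF were the controls (replicates 1 to 3) and 3 C57BL/6 mice had the genotype PGC;Ras;APC FF (replicates 4 to 6). Each library came from a single mouse. Ras and APC FF were thus common to both groups and PGC was the added component. Neither PGC nor FF is explained in the labels, which name no promoter and no age, sex or induction time. The comparison asks how these genes differ in the corpus when PGC is added.

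Ribosome biogenesis begins in the nucleolus, where RNA polymerase I transcribes a long precursor of ribosomal RNA. Small nucleolar RNA-protein particles (snoRNPs) modify that precursor: the box C/D type carries the methyltransferase fibrillarin, and the box H/ACA type carries the pseudouridine synthase dyskerin. Separate sets of assembly factors then cleave the precursor and build the small and the large subunit. Cells that grow and divide are known to make more ribosomes, and the transcription factor MYC is a known activator of many genes of this pathway.

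A pair of libraries stood apart from the others of their group. Replicate 6 had 12407 genes at 1 FPKM or more, against 11465 to 12010 in the other libraries, and far lower levels of digestive genes, given beside the results. Control replicate 3 had Xist at 0 and Eif2s3y at 13.15 FPKM, while the other libraries had Xist at 3.58 to 6.19 FPKM and Eif2s3y at 0, so that this library reads as male. The median member change given next as 0.60 was 0.44 without replicate 6 and 0.56 without replicate 3.

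All 40 genes stood higher on average in PGC;Ras;APC FF corpus, beside 80.6% of the 11857 genes tested. In 38 of the 40 genes the groups did not overlap, against 42.7% of all tested genes with all PGC;Ras;APC FF libraries on the higher side. Their median log2 change was 0.60 on the log2(FPKM + 1) scale, with members from 0.17 to 1.06. The median over all tested genes was itself 0.26, so that the members lay 0.34 above it. In plain FPKM, the mean over PGC;Ras;APC FF libraries was 1.20 to 2.29 times the control mean, with a median ratio of 1.65. None of the 40 passed a Benjamini-Hochberg adjusted p threshold of 0.05 in limma (adjusted p between 0.085 and 0.408), beside 0.110% of all tested genes called higher and 0.0422% called lower. At an unadjusted limma p under 0.05 there were 38 of 40, against 31.8% of all tested genes on the higher side. An exact two-sided test of 3 against 3 mice cannot give a p under 0.1.

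The number of calls turned on single libraries. Without replicate 6, 11 of 40 members rose (limma adjusted p from 0.0325 for Nop16 to 0.0488 for Nop58 and Wdr75), beside 7.17% of the 11600 genes then tested, and the median member change was 0.44 against 0.17 for all genes. The 11 were Nop58, Fbl, Nhp2, Npm1, Nolc1, Wdr75, Rrp9, Pes1, Nop2, Nop16 and Gnl3. With median-of-ratios scaling as well, a setting added after seeing the data, all 11 calls were lost: 0 of 40 were called by limma (smallest adjusted p 0.0746), beside 0.181% of tested genes, and 14 had an unadjusted p under 0.05, beside 10.3%. Without replicate 5, Nop16 alone rose (limma adjusted p = 0.0413), beside 3.54% of tested genes. Without replicate 1, 2 or 3, 0 of 40 were called by limma, beside 0.00% of tested genes, and 32, 32 and 31 had an unadjusted p under 0.05, beside 16.9%, 19.1% and 24.1%. Without replicate 4, 0 of 40 were called by limma, beside 0.0172%, and 36 had an unadjusted p under 0.05, beside 30.0%. Weighting each library by an estimate of its quality called 33 of 40 higher in limma, beside 26.6% of tested genes.

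**Figure D1:**
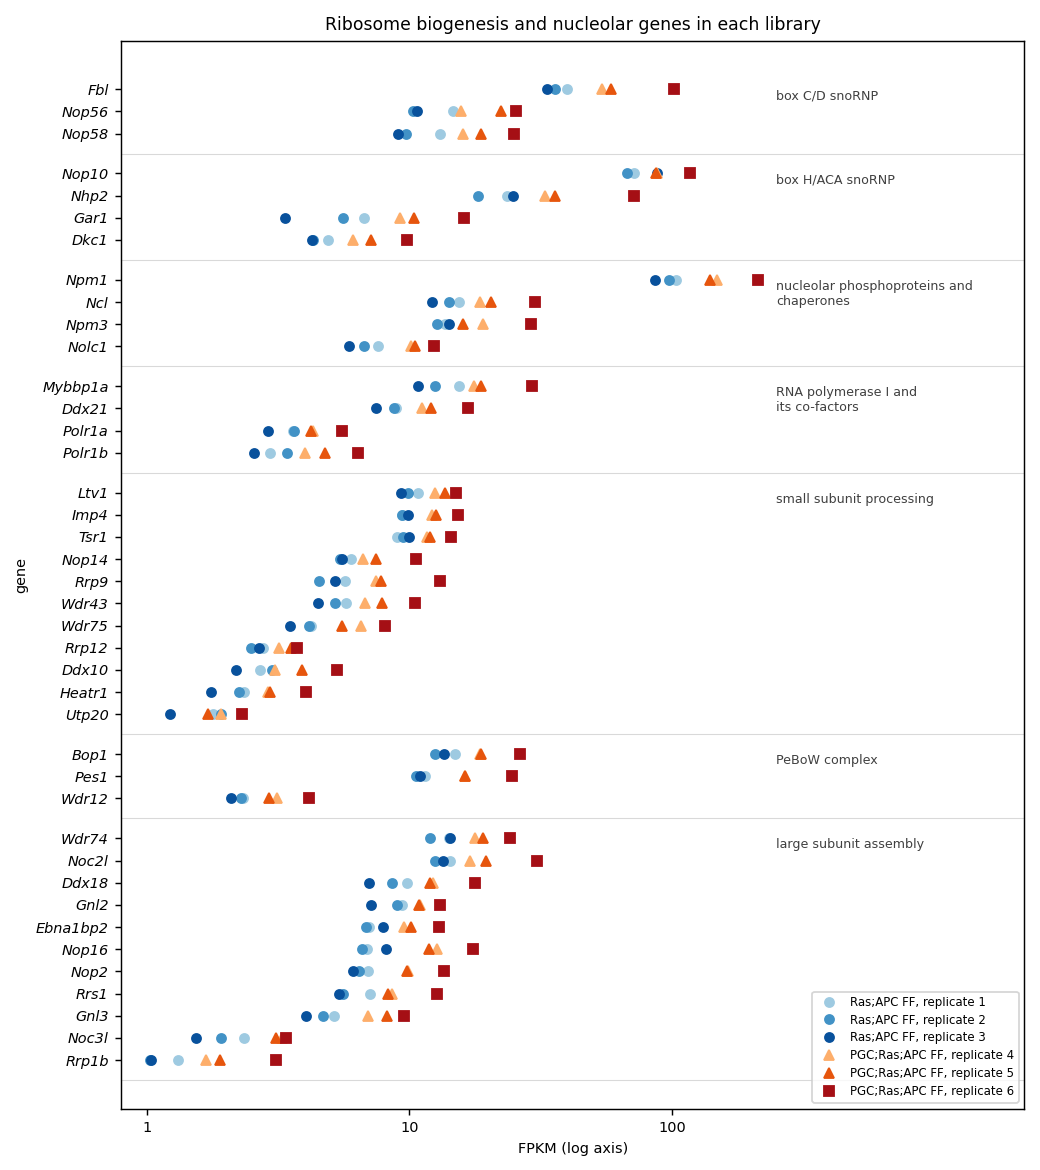
FPKM (log axis) of each of the 40 genes in each library, with controls as blue circles, PGC;Ras;APC FF replicates 4 and 5 as orange triangles and replicate 6 as a red square; genes are grouped by role and ordered by control mean. Replicate 6 is the highest library in all 40 genes, and the groups overlap only in Nop10 and Utp20.

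The FPKM scale itself moved between the groups. Pgc, Clps and Pla2g1b, 3 very abundant digestive genes, held 34.9% to 48.1% of summed FPKM in controls. They held 32.7% (replicate 4), 31.7% (replicate 5) and 6.36% (replicate 6) in PGC;Ras;APC FF, and their part in the shift of all other genes was not tested. Median-of-ratios scaling, which centres the libraries on their common genes, brought the median change of all tested genes to -0.0027 and that of the members to 0.34. On that scale 39 of 40 members still had a positive change (Utp20 was at -0.027), beside 49.7% of all tested genes. Every PGC;Ras;APC FF library then lay above every control in 27 of 40 members, beside 18.0% of all tested genes. None of the 40 was called after this scaling by limma, beside 0.0759% of tested genes, and 25 had an unadjusted p under 0.05, beside 13.2%. With a total that left out the 50 most abundant rows, the non-overlapping members were 16 of 40, beside 14.0% of all tested genes, and 38 had a positive change, beside 42.7%, Nop10 and Utp20 being the exceptions. After quantile normalization 24 of 40 did not overlap, beside 17.0%.

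Ranks within a library, which no scaling of a library can change, also placed the members higher in PGC;Ras;APC FF. The median member stood at percentile 53.4, 49.2 and 51.0 of the tested genes in control replicates 1 to 3, and at 58.7, 59.5 and 59.9 in replicates 4 to 6. The members' summed FPKM was 520, 469 and 474 in the controls and 679, 699 and 1025 in replicates 4 to 6. Relative to each gene's control mean, the median member was at 1.37 times in replicate 4, 1.45 times in replicate 5 and 2.06 times in replicate 6. Replicate 6 was the highest of the 6 libraries in 40 of 40 members, beside 68.4% of all tested genes, and after median-of-ratios scaling in 27 of 40, beside 32.5%. Control replicate 3, the library that reads as male, was the lowest in 24 of 40 members, beside 26.7% of all tested genes. After median-of-ratios scaling it was the lowest in 23 of 40, beside 20.4%. Among changes of all tested genes, the members ranged from percentile 37.7 (Utp20) to 96.9 (Gar1) with a median of 85.2, and 29 of 40 lay above percentile 75.

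**Figure D2:**
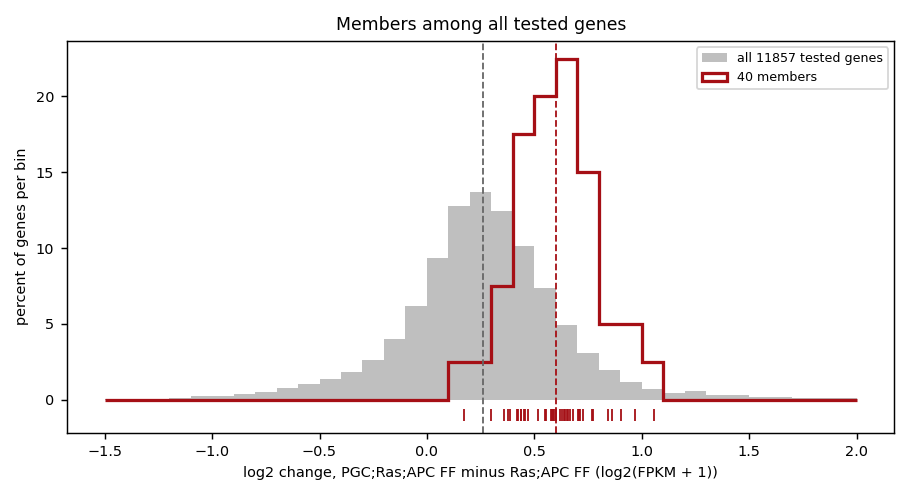
Percent of genes per bin of log2 change (PGC;Ras;APC FF minus Ras;APC FF, on log2(FPKM + 1)) for all 11857 tested genes (grey) and the 40 members (red line, with each member as a tick). The 89 tested genes outside the plotted range are not drawn. The dashed lines mark the medians, 0.26 for all tested genes and 0.60 for the members. The members range from percentile 37.7 (Utp20) to 96.9 (Gar1) of all tested genes, and 29 of 40 lie above percentile 75.

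Among the proteins of the box C/D snoRNPs, the particles that methylate ribosomal RNA, fibrillarin stood highest. Fbl, the methyltransferase (chromosome 7), was read at 39.8, 35.8 and 33.5 FPKM in the control mice, against 54.0, 58.8 and 102 FPKM in replicates 4 to 6. The groups did not overlap, and replicate 6 was far above the other libraries. The mean went from 36.3 ± 3.19 to 71.6 ± 26.4 FPKM (SD, n = 3 each), a log2 change of 0.90 ± 0.24 (SE, limma adjusted p = 0.085), of 0.62 without replicate 6 (limma adjusted p = 0.0341) and of 0.60 after median-of-ratios scaling. Nop56, a scaffold of the same particle, was at 14.6, 10.3 and 10.7 FPKM in the control mice, against 15.7, 22.4 and 25.4 FPKM in replicates 4 to 6. Its lowest PGC;Ras;APC FF library lay just above its highest control, and after median-of-ratios scaling the groups overlapped. Its partner Nop58 went from a mean of 10.6 ± 2.21 to 19.9 ± 4.57 FPKM (SD, n = 3 each). In each library Nop58 stood at 0.839 to 1.02 times Nop56, with the groups overlapping in that ratio.

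The proteins of the box H/ACA snoRNPs, the particles that carry out pseudouridylation, differed among themselves. Gar1, a core protein of the particle with glycine- and arginine-rich tails, was at 6.71, 5.61 and 3.37 FPKM in the control mice, against 9.23, 10.4 and 16.2 FPKM in replicates 4 to 6. It had the largest change of all 40 members, a log2 change of 1.06 ± 0.27 (SE, limma adjusted p = 0.085), with control replicate 3 well below the other controls. Nop10, the smallest protein of the particle, was at 71.6, 67.3 and 87.8 FPKM in the control mice, against 87.6, 87.3 and 117 FPKM in replicates 4 to 6. Its groups overlapped, since control replicate 3 exceeded replicates 4 and 5, and its log2 change of 0.36 was 0.051 after median-of-ratios scaling. The RNA-binding subunit Nhp2 had means of 22.2 ± 3.47 and 46.8 ± 21.6 FPKM (SD, n = 3 each), and dyskerin, Dkc1, on the X chromosome, had means of 4.49 ± 0.361 and 7.67 ± 1.88 FPKM.

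Ratios within a library do not depend on its scaling. The ratio of Gar1 to Nop10 was 0.0937, 0.0834 and 0.0384 in controls and 0.105, 0.119 and 0.138 in replicates 4 to 6, and that of Nhp2 to Nop10 was 0.328, 0.271 and 0.282 in controls and 0.374, 0.412 and 0.611 in replicates 4 to 6. Neither ratio overlapped between the groups. These pairs were chosen after their values were seen, and a changed ratio shows unequal change of the 2 genes, not which of them changed. Fbl to Nop56, Npm1 to Npm3 and Polr1b to Polr1a overlapped between the groups in the same reading.

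The nucleolar phosphoproteins held the most abundant member. Npm1, nucleophosmin, a histone and ribosome chaperone of the outer nucleolus (chromosome 11), was at 104, 97.9 and 86.3 FPKM in the control mice, against 149, 139 and 212 FPKM in replicates 4 to 6. All 3 PGC;Ras;APC FF libraries lay clear of the controls, with a log2 change of 0.77 ± 0.19 (SE, limma adjusted p = 0.085). Npm1 has processed copies in the mouse genome, and reads could be split with them. Its relative Npm3 had the smallest change of this group, from 13.7, 12.7 and 14.2 FPKM to 19.0, 16.1 and 29.2 FPKM. Nucleolin, Ncl, a binder of precursor ribosomal RNA, had means of 13.9 ± 1.63 and 23.1 ± 6.20 FPKM. Nolc1, a chaperone of snoRNPs, had means of 6.73 ± 0.860 and 11.04 ± 1.24 FPKM (SD, n = 3 for each), and its PGC;Ras;APC FF libraries were close together at 10.1, 10.6 and 12.5 FPKM. All 4 genes kept non-overlapping groups after median-of-ratios scaling, beside 18.0% of all tested genes on the higher side.

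Of RNA polymerase I and its co-factors, Polr1a had the smallest change and the other 3 genes were close to each other, with mean ratios of 1.69 (Polr1b), 1.70 (Mybbp1a) and 1.59 (Ddx21) beside 1.39 (Polr1a). Polr1a, the largest subunit, was at 3.61, 3.63 and 2.89 FPKM in the control mice, against 4.30, 4.23 and 5.53 FPKM in replicates 4 to 6, a log2 change of 0.37 ± 0.15 (SE, limma adjusted p = 0.123), and its groups overlapped after median-of-ratios scaling. Polr1b, the second largest subunit, had means of 2.97 ± 0.421 and 5.04 ± 1.20 FPKM. Mybbp1a, a nucleolar MYB-binding protein that acts in ribosomal RNA synthesis and processing, had the largest change here, from 15.4, 12.5 and 10.8 FPKM to 17.7, 18.7 and 29.3 FPKM. Its groups also overlapped after median-of-ratios scaling. The helicase Ddx21, which links transcription by RNA polymerase I to processing, had means of 8.37 ± 0.756 and 13.3 ± 2.97 FPKM (SD, n = 3 for each mean).

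Factors of small subunit processing had the smallest median change of the 7 role groups, at 0.45 on the log2 scale and 0.18 after median-of-ratios scaling. Of these 11 genes, 10 had non-overlapping groups on the FPKM scale, beside 42.7% of all tested genes, and 5 after that scaling, beside 18.0%. Utp20, a giant scaffold of the processome, was at 1.79, 1.91 and 1.23 FPKM in the control mice, against 1.91, 1.71 and 2.30 FPKM in replicates 4 to 6. Its groups overlapped, with the smallest change of all 40 members at 0.17 ± 0.15 (SE, limma adjusted p = 0.408). Rrp9, a protein of the snoRNP that directs early cleavage, had the largest change of the group at 0.73 ± 0.21 (SE, limma adjusted p = 0.0899), from 5.70, 4.53 and 5.22 FPKM to 7.46, 7.78 and 13.1 FPKM. Replicate 6 stood apart there, and the change was 0.49 without it.

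Ltv1, an export and maturation factor of the small subunit, was the most abundant of these 11, at 10.8, 9.90 and 9.28 FPKM in the control mice, against 12.6, 13.7 and 15.1 FPKM in replicates 4 to 6. Changes were modest and similar in the other late factors, with means of 9.45 ± 0.525 and 12.7 ± 1.505 FPKM for Tsr1 and of 2.65 ± 0.142 and 3.497 ± 0.274 FPKM for Rrp12. Tsr1 shares 1240 exon bases with Srr on the opposite strand, and whether reads were assigned by strand is not stated. The processome proteins linked to early transcription, Heatr1, Wdr43 and Wdr75, had log2 changes of 0.46, 0.60 and 0.63. Imp4, which pairs the guide snoRNA with the precursor, Nop14, a processome scaffold, and the helicase Ddx10 had log2 changes of 0.44, 0.45 and 0.47.

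The PeBoW proteins, a complex needed for maturation of the large subunit, stood higher in all PGC;Ras;APC FF libraries. Pes1 was at 11.5, 10.7 and 11.02 FPKM in the control mice, against 16.3, 16.3 and 24.6 FPKM in replicates 4 to 6, with tight controls and a log2 change of 0.71 ± 0.18 (SE, limma adjusted p = 0.085). Bop1 was at 14.9, 12.5 and 13.6 FPKM in the control mice, against 18.7, 18.7 and 26.4 FPKM in replicates 4 to 6. Wdr12 was at 2.33, 2.28 and 2.10 FPKM in the control mice, against 3.14, 2.93 and 4.15 FPKM in replicates 4 to 6. In all 3 the groups did not overlap on the FPKM scale, beside 42.7% of all tested genes on the higher side. Nor did they after median-of-ratios scaling, beside 18.0%.

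In large subunit assembly, all 11 genes had non-overlapping groups on the FPKM scale, beside 42.7% of all tested genes, and 8 did after median-of-ratios scaling, beside 18.0%. Nop16, a nucleolar assembly factor, was at 6.88, 6.58 and 8.13 FPKM in the control mice, against 12.7, 11.9 and 17.4 FPKM in replicates 4 to 6. Its lowest PGC;Ras;APC FF library exceeded its highest control by more than the spread of the controls, with a log2 change of 0.86 ± 0.17 (SE, limma adjusted p = 0.085, and 0.0889 after median-of-ratios scaling). Gnl2, a GTPase of nuclear precursor maturation, had the smallest change, from 9.40, 8.94 and 7.13 FPKM to 11.03, 10.9 and 13.1 FPKM, and overlapped after that scaling.

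Its relative Gnl3, nucleostemin, a nucleolar GTPase enriched in stem and cancer cells, had means of 4.64 ± 0.568 and 8.24 ± 1.31 FPKM (SD, n = 3 each). The ratio of Gnl3 to Gnl2 was 0.526 to 0.567 in controls and 0.630 to 0.753 in PGC;Ras;APC FF. This pair too was chosen after its values were seen, Gnl2 having the smallest change of the group. Noc2l had the highest mean of the 11 over all 6 libraries, through replicate 6, while Wdr74 had the higher control mean (13.49 against 13.42 FPKM). Noc2l was at 14.3, 12.6 and 13.4 FPKM in the control mice, against 17.0, 19.5 and 30.7 FPKM in replicates 4 to 6, and shares 598 exon bases with the opposite-strand gene Samd11. Noc3l, its partner family member, had PGC;Ras;APC FF libraries at 3.27, 3.12 and 3.38 FPKM, the least spread of any member, against 2.34, 1.91 and 1.54 FPKM in controls. In both Noc2l and Noc3l the groups overlapped after median-of-ratios scaling. The methyltransferase Nop2, the helicase Ddx18 and the assembly factors Rrs1, Ebna1bp2, Rrp1b and Wdr74 had log2 changes of 0.68, 0.65, 0.62, 0.52, 0.58 and 0.55. Rrp1b was low in FPKM, so that this scale understates its change. Its means were 1.13 and 2.23 FPKM, a ratio of 1.97 beside 1.95 for Nop16. In all, 13 of the 40 members share exon bases with another row of the table, each on the opposite strand.

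**Figure D3:**
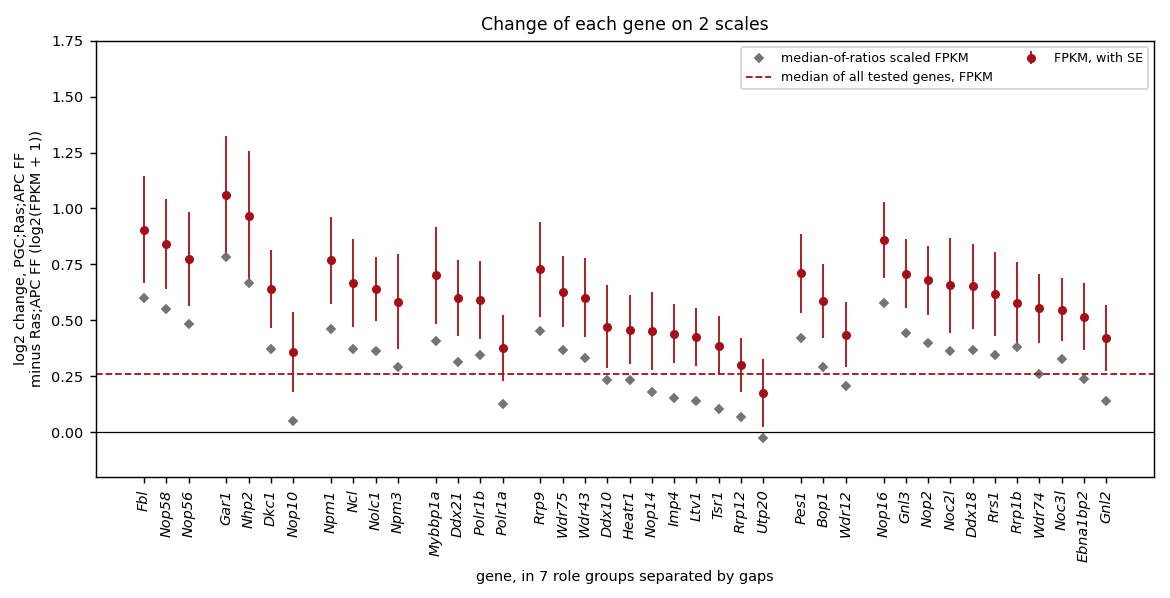
Log2 change of each of the 40 genes (PGC;Ras;APC FF minus Ras;APC FF) on log2(FPKM + 1) with its SE (red circles) and after median-of-ratios scaling (grey diamonds), grouped by role. The dashed line is the median of all 11857 tested genes at 0.26; of the red points, Utp20 lies below it, and of the diamonds, Utp20 lies below 0.

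The members' promoters were searched for letters known as binding motifs, since the members stood higher in the same libraries. RefSeq windows (GRCm38.p6, 250 bases before to 50 bases after the start) matched 34 of the 40 members. The E-box CACGTG, the motif of MYC and its partner MAX and the same on both strands, was in the windows of 8 of these 34 genes (23.5%), against 11.8% of the 9116 tested genes with a window. CCGGAAG, the core motif of ETS factors, on either strand, was in 12 of 34 (35.3%), against 20.1% of tested genes. The letters of the 2 motifs cannot overlap. Members with the E-box had a median log2 change of 0.52 and those without it 0.61, and members with CCGGAAG one of 0.55 and those without it 0.61. A match is a run of letters and no evidence of binding.

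The E-boxes lay between positions -121 (Imp4) and 41 (Mybbp1a) from the start, with -1 as the last base before it. That start is the RefSeq one. In 29 of the 38 member windows, bases after it lay in a GENCODE M21 transcript of the gene on its strand. The E-boxes are shown to tell how near the RefSeq start they fall. Each is given 5′ to 3′ on the gene's strand with up to 11 bases on each side, and the capitals mark the motif.
Imp4, chr1:34439697-34439724, plus strand: cggtcttagacCACGTGacatcccaaat
Nop2, chr6:125131812-125131839, plus strand: tgtccctggatCACGTGtgttccggtgc
Ltv1, chr10:13193093-13193120, minus strand: ccctgtggaccCACGTGtggagctgccg
Utp20, chr10:88826765-88826788, minus strand: ggcactaactaCACGTGaggaaaa
Pes1, chr11:3963966-3963993, plus strand: cctaggcagggCACGTGcgggaggaagt
Mybbp1a, chr11:72441356-72441376, plus strand: tcttctgagccCACGTGtttg
Tsr1, chr11:74898093-74898120, plus strand: cacttggtgcaCACGTGgactgcagaat
Wdr43, chr17:71616221-71616248, plus strand: gcccgggcgaaCACGTGgctgccgcgga

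These 8 genes held both Utp20, the member of smallest change, and Pes1 and Mybbp1a, which were among the larger changes at 0.71 and 0.70. The CCGGAAG runs of Gar1 and Nhp2, the members of largest change, and of Nolc1 and Heatr1 are shown in the same way, with capitals for the motif as it reads on the gene's strand.
Gar1, chr3:129831422-129831450, minus strand: gcgccgccacaCTTCCGGaaacgtcgcgt
Nhp2, chr11:51619739-51619767, plus strand: cacttgaaaacCCGGAAGtgatgtcggag
Heatr1, chr13:12395348-12395376, plus strand: gtagtgagaagCCGGAAGttcctatgagg
Nolc1, chr19:46075822-46075850, plus strand: cgcgtgtgggaCCGGAAGcaacttctaga

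Nop2, Ltv1 and Tsr1 held both motifs (3 of 34 members, 8.82%, against 2.39% of tested genes with a window). In Nop2, from 6.96, 6.41 and 6.09 FPKM in controls to 9.90, 9.83 and 13.5 FPKM in replicates 4 to 6, both stood before the start, and its 250 upstream bases are given with the E-box and then the CCGGAAG run in capitals.
Nop2, chr6:125131633-125131882, plus strand: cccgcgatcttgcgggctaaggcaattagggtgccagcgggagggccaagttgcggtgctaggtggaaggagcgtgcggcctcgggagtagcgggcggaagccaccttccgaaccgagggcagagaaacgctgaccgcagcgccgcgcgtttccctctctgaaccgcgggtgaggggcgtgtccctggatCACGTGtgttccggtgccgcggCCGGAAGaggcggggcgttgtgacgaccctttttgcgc

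Some members host small nucleolar RNA genes. In GENCODE release M21, 7 of the 40 (17.5%) have annotated small nucleolar RNA genes inside them on the same strand, against 1.74% of the 11504 tested genes found there. The hosts were Nop56 with 5 such genes, Nop58 with 4, Gnl3, Ncl and Wdr43 with 3 each, Tsr1 with 2 and Dkc1 with 1. Their median log2 change was 0.67, and that of the other 33 members was 0.59. The level of the small RNAs themselves is not read from these values.

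Other genes of the pathway stood higher in the same libraries, less clearly so after scaling. Beside the counts that follow, 42.7% of all tested genes had non-overlapping higher groups on the FPKM scale, 18.0% had them after median-of-ratios scaling, and 7.17% were called higher without replicate 6. Of 44 other small subunit genes, 0 passed the limma threshold over all 6 libraries, 40 had non-overlapping groups, and the median change was 0.49. After median-of-ratios scaling 21 of 44 did not overlap and the median was 0.21. Without replicate 6, 9 of them rose, and 0 with that scaling as well. Imp3, a partner of Imp4, was at 36.4, 36.6 and 48.4 FPKM in the control mice, against 53.9, 54.4 and 96.6 FPKM in replicates 4 to 6. Of 45 tested other large subunit genes, 0 passed and 42 had non-overlapping groups, with a median change of 0.51, and 7 of 44 rose without replicate 6. After median-of-ratios scaling 26 of 45 did not overlap, the median was 0.24, and 0 were called without replicate 6. Eif6, which keeps the large subunit from joining the small one too early, was at 49.1, 53.3 and 66.0 FPKM in the control mice, against 71.3, 82.5 and 123 FPKM in replicates 4 to 6.

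The 18 other genes of RNA polymerase I, its shared subunits and its initiation factors were less uniform among themselves. Changes ran from 0.0035 (Taf1a) to 1.07 (Polr2h), with a median of 0.48. The groups did not overlap in 13 of 18, beside 42.7% of all tested genes on the higher side. After median-of-ratios scaling 7 of 18 did not overlap, beside 18.0% of all tested genes. On that scale 12 had a positive change, beside 49.7%, and the median was 0.19. Polr2h, a subunit shared by all nuclear RNA polymerases, was at 7.49, 8.17 and 8.69 FPKM in the control mice, against 14.7, 14.7 and 27.5 FPKM in replicates 4 to 6, clear of all controls. Taf1a, of the promoter selectivity factor, was at 2.23, 2.69 and 2.33 FPKM in the control mice, against 2.47, 2.33 and 2.46 FPKM in replicates 4 to 6, with no separation. The initiation factor Rrn3 had a change of 0.27 that was -0.012 after median-of-ratios scaling, and Ubtf, which opens ribosomal DNA, one of 0.48 that was 0.19 after it. Polr2h, Taf1a, Rrn3 and Ubtf were chosen after their values were seen.

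The cytosolic ribosomal protein genes, whose products the members assemble, had a median change of 0.66 over 79 genes. Of these, 0 passed the limma threshold and 70 had non-overlapping groups, beside 42.7% of all tested genes on the higher side. After median-of-ratios scaling 52 did not overlap, beside 18.0% of all tested genes, and the median of the list was 0.35, beside 0.34 for the members. Their mean level above controls was 0.44, 0.46 and 1.08 in replicates 4 to 6, beside 0.42, 0.48 and 0.91 for the members. Whether these lists differ was not tested.

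Myc itself, the best known activator of the pathway, was at 8.61, 10.5 and 6.30 FPKM in the control mice, against 12.1, 15.6 and 17.3 FPKM in replicates 4 to 6. The groups did not overlap on either scale, and the log2 change was 0.77 (limma adjusted p = 0.085, and 0.0744 without replicate 6). Max, its dimer partner, was at 17.96, 17.1 and 19.0 FPKM in the control mice, against 29.5, 26.8 and 49.1 FPKM in replicates 4 to 6, and rose when replicate 6 was left out (limma adjusted p = 0.0328), a call lost with median-of-ratios scaling as well. Mycn did not pass the filter on low values and was read at 0.52, 0.60 and 0.41 FPKM in the control mice, against 1.65, 0.78 and 4.96 FPKM in replicates 4 to 6. Mxd1, a repressor that competes with MYC for MAX, was at 20.5, 25.6 and 35.0 FPKM in the control mice, against 16.4, 20.9 and 22.2 FPKM in replicates 4 to 6, overlapping on the FPKM scale and lower in every PGC;Ras;APC FF library after median-of-ratios scaling. Of the 11 tested genes of this network 0 passed the limma threshold over all 6 libraries, and 5 had non-overlapping higher groups, near the 42.7% of all tested genes. After median-of-ratios scaling 6 of 11 had a positive change, beside 49.7% of all tested genes, and 3 had non-overlapping higher groups, beside 18.0%. The mean level of the network above controls was 0.20, 0.22 and 0.62 in replicates 4 to 6, close to that of all tested genes at 0.20, 0.16 and 0.47.

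**Figure D4:**
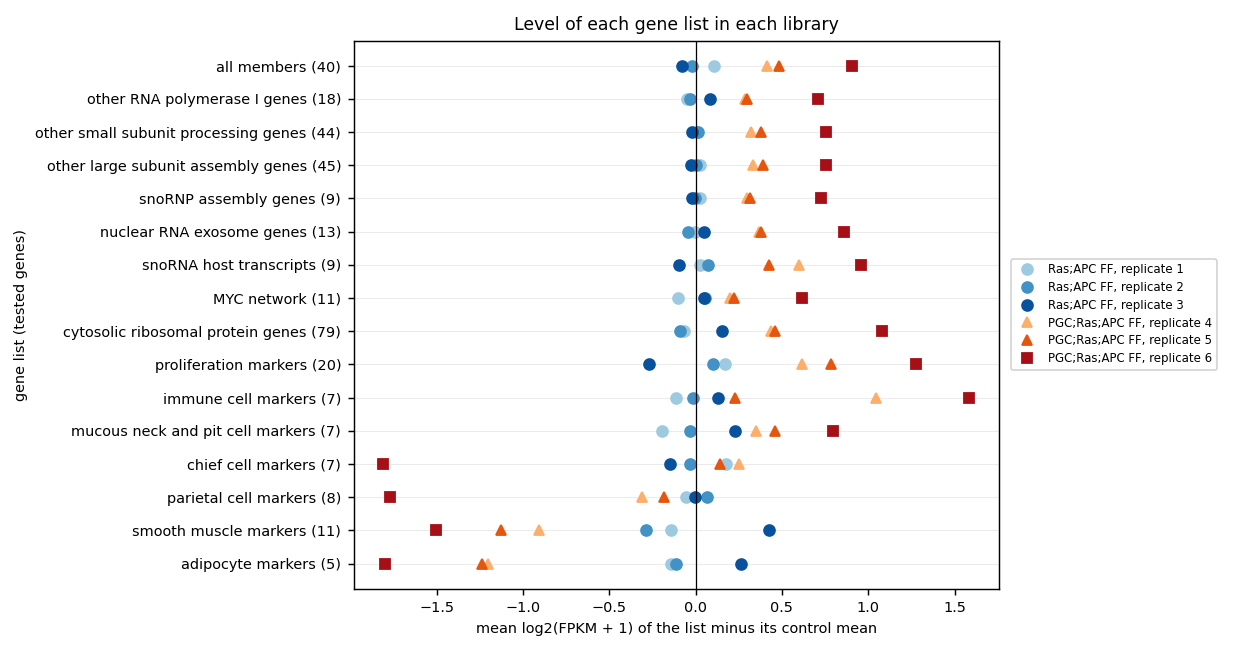
Mean log2(FPKM + 1) of each gene list in each library minus the list's control mean, with the number of tested genes in brackets; controls are blue circles, replicates 4 and 5 orange triangles and replicate 6 a red square. The 40 members stand at 0.42, 0.48 and 0.91 in replicates 4 to 6, as the proliferation list stands at 0.62, 0.78 and 1.28 and the smooth muscle list at -0.91, -1.13 and -1.50.

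Proliferation and smooth muscle markers separated the groups in nearly all or all of their genes, while each other cell type list did so in some genes. Over all tested genes, 42.7% had non-overlapping higher groups, and 649 of 11857 had non-overlapping lower groups. The part of these marker lists in the results was not tested. The summed FPKM of 20 proliferation markers was 122 to 161 in controls and 230 to 378 in PGC;Ras;APC FF, with non-overlapping groups in 19. The sum of 11 smooth muscle markers was 2554 to 4540 in controls and 1155 to 1702 in PGC;Ras;APC FF, lower without overlap in all 11. Chief cell markers summed to 296114 to 380085 FPKM in controls, to 266886 and 256625 in replicates 4 and 5 and to 46134 in replicate 6. That sum rests on a few very abundant genes. The mean log2 level of the 7 markers stood at 0.25, 0.14 and -1.81 relative to controls in replicates 4 to 6. Of the 7, 1 was lower and 1 higher without overlap. Parietal cell markers summed to 7141 to 8040 FPKM in the control mice and to 5393, 6761 and 1357 in replicates 4 to 6. Of these 8 genes, 5 were lower without overlap. The proton pump gene Atp4b, a defining marker of the corpus, was read at 723 FPKM or more in every library. Immune markers summed to 69.3 to 116 FPKM in the control mice, against 100.1 to 351 in PGC;Ras;APC FF, with Ms4a1 at 0 in replicates 1 and 2. Of 7 immune markers tested, 4 were higher without overlap. Adipocyte markers summed to 89.5 to 127 FPKM in the control mice, against 32.8 to 71.1 in PGC;Ras;APC FF. Of 5 tested, 2 were called lower by limma over all 6 libraries, beside 0.0422% of tested genes, and 3 were lower without overlap. The sums of mucous neck and pit cell markers overlapped, at 75452 to 147125 and 108444 to 120524, with 3 of 7 genes higher without overlap. In whole tissue, a different number of cells of a type and a different amount of RNA per cell cannot be told apart.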

How the data were processed

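RNA was read in 6 corpus libraries, 3 per genotype, each from 1 mouse per the labels. The deposited values are FPKM per gene symbol, computed by the authors and written with 2 decimals. STAR, featureCounts and the build mm10 are named per the submitters' processing notes. Tool versions, annotation, strand setting and read totals were not stated, and low FPKM gave no common step per read, so depth is unknown and no counting interval is given. The p-values set the difference between the genotypes against the spread between mice within each genotype, moderated over all tested genes.

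FPKM are not counts, so log2(FPKM + 1) was tested in limma 3.58.1, R 4.3.3 (moderated variances with a mean trend, genotype as the single term, two-sided, Benjamini-Hochberg over all tested genes, threshold 0.05). Such changes understate those of low genes. Genes with at least 1 FPKM in at least 3 libraries were tested (11857), and all 40 members passed. The fit left 4 residual degrees of freedom, or 7.72 after moderation. The test was tested on simulated data. Alternatives changed the pseudocount, filter, scaling, weights, variance trend and libraries, with median-of-ratios scaling without replicate 6 added after seeing the data. The members, role groups and lists were chosen with earlier results of these data known. Values in every library are printed for the most abundant member of each role group and those of largest and smallest change. Noc3l and Nop2 are printed outside this rule, and Nolc1 in its PGC;Ras;APC FF libraries alone. Genes of other lists are printed by abundance, with exceptions marked. Coordinates are from RefSeq GRCm38.p6 windows and GENCODE M21, both on GRCm38.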

Additional observations from a re-analysis of the deposited data

How the results depend on the processing

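All members tested kept a positive change, none called lower, under every pseudocount, filter, weight and variance setting and every left-out library; the exceptions came with scaling. Utp20 was at -0.027 (median-of-ratios scaling), -0.020 (quantile normalization), -0.067 with the total without the 50 highest rows and -0.025 with median-of-ratios scaling without replicate 6, and Nop10 was at -0.0066 with the total without the 50 highest rows; the cause was not tested. The median member change minus that of all tested genes stayed between 0.26 and 0.46. The median member change itself was 0.29 with the total without the 50 highest rows and 0.28 with median-of-ratios scaling without replicate 6. Non-overlapping members numbered 24 after quantile normalization and 16 with the total without the 50 highest rows, beside 17.0% and 14.0% of tested genes.

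Calls depended on the weights and on single libraries. Array quality weights called 33 members, beside 26.6% of all tested genes, with 3152 genes higher and 336 lower. Leaving out 1 library gave 0 to 11 members (0 with median-of-ratios scaling without replicate 6), 0 to 832 genes higher and 0 to 106 lower. Genes called higher were 29 with a pseudocount of 0.1, 3 without a filter, 7 (with 2 lower) at a mean of at least 5 FPKM, where 31 members were tested, and 21 (with 27 lower) with median-of-ratios scaling without replicate 6. Genes called lower were 10, 13 and 10 after median-of-ratios, quantile and top-50 scaling, where the share of higher calls went from 72.2% to 47.4%, 43.5% and 54.5%. No paired analysis was possible because the groups share no replicate numbers.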

Other observations

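Helper genes around the pathway were also read. Beside the counts that follow, 42.7% of all tested genes had non-overlapping higher groups, 18.0% had them after median-of-ratios scaling, and 7.17% were called higher without replicate 6. With that scaling and without replicate 6, 0 genes of these 3 lists were called by limma. Of 9 genes of snoRNP assembly, 0 passed the limma threshold over all 6 libraries, 6 had non-overlapping groups (4 after median-of-ratios scaling), and 3 of 8 rose without replicate 6. The AAA+ ATPase Ruvbl2 was at 11.4, 12.2 and 10.5 FPKM in the control mice, against 16.2, 15.9 and 26.4 FPKM in replicates 4 to 6, and its partner Ruvbl1 at 6.62, 5.67 and 6.11 FPKM in the control mice, against 8.97, 9.41 and 15.8 FPKM in replicates 4 to 6. Pih1d1, an adaptor of the same assembly machinery, was at 19.5 to 21.3 FPKM in the control mice, against 22.5 to 28.0 FPKM in PGC;Ras;APC FF. Of 13 genes of the nuclear RNA exosome, which trims precursor ribosomal RNA, 0 passed, 11 had non-overlapping groups and 4 rose without replicate 6, with a median change of 0.49. After median-of-ratios scaling 5 of 13 did not overlap and the median was 0.21.

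Transcripts that host small nucleolar RNAs in their introns had a median change of 0.67 over 9 tested. Non-overlapping groups were found in 5 of the 9, near the share of all tested genes, and in 4 after median-of-ratios scaling, where the median was 0.40. Snhg3 was at 13.6, 10.8 and 16.6 FPKM in the control mice, against 17.9, 19.0 and 24.2 FPKM in replicates 4 to 6. Gas5, a growth arrest transcript chosen after its values were seen, was at 2.18, 1.43 and 1.39 FPKM in the control mice, against 4.18, 2.99 and 5.33 FPKM in replicates 4 to 6, and rose without replicate 6 (limma adjusted p = 0.0427).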
